A study of Mus musculus with 6 samples.

Results

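The genes described here encode proteins that bind, cross-link or fold muscle myosin, namely MYBPC1, MYBPC2, MYBPC3, MYBPH, MYOM1, MYOM2, SMYD1 and UNC45B. A probe was taken when its gene name in the deposited array file, ignoring case, was 1 of these 8 names, and each probe was kept apart. This gave 9 of the 45281 probes, for 6 of the 8 genes. No probe carried the name Mybpc1, which the file lists under the older name 8030451F13RIK. Its probes were added by Entrez gene number or by that older name after their values had been seen and are kept apart from the counts. The expression of Mybph was not analysed here, and only its promoter is described.

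C2C12, an established mouse myoblast line that fuses into myotubes when serum is lowered, was transfected as myoblasts with 60 nM of either scramble siRNA or DJ-1 siRNA, with a single siRNA sequence against the *Dj1* transcript. Differentiation was started 48 h later and went on for 4 days, so every sample was a differentiating culture that had received an siRNA. RNA of 3 samples per group was hybridized to 6 arrays of a single Illumina mouse BeadChip. The labels do not say whether the replicates were separate cultures, so p-values measure the spread between these samples. Median raw signal lay between 152.3 and 167.4 over the arrays, between 16985 and 18857 probes per array had a detection p under 0.05, and 3 arrays per group limit the precision.

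In the thick filament of striated muscle, myosin-binding protein C binds the myosin filament in the C-zone and modulates cross-bridge cycling. *Mybpc1* encodes the slow skeletal, *Mybpc2* the fast skeletal and *Mybpc3* the cardiac form. Myomesins, encoded by *Myom1* and *Myom2*, cross-link the filaments at the M-band in the middle of the sarcomere. Newly made myosin heads are folded with the help of the chaperone Unc45b, which works with Hsp90, and of the muscle-restricted SET and MYND domain protein Smyd1.

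RefSeq promoters (GRCm38.p6) were matched by symbol for 7 of the 8 genes, the exception being *Myom2*. Those of the genes with a called fall, *Mybpc1*, *Mybpc2* and *Smyd1*, are shown with that of *Unc45b*, a folding factor like Smyd1 that was not called. Each is the 250 bases before the annotated start, 5′ to 3′ on the gene's own strand, which is the minus strand for *Mybpc1* (chr10:88605153-88605402), *Mybpc2* (chr7:44524670-44524919) and *Smyd1* (chr6:71262282-71262531) and the plus strand for *Unc45b* (chr11:82911003-82911252). Capitals mark matches on either strand to an E-box (CANNTG), an MCAT element (CATTCC), a MEF2 site or a CArG box.
Mybpc1: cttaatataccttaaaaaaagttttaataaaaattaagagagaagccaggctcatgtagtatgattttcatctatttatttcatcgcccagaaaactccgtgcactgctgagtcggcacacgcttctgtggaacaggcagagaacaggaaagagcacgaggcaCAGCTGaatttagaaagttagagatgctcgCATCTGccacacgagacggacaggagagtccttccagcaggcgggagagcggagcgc
Mybpc2: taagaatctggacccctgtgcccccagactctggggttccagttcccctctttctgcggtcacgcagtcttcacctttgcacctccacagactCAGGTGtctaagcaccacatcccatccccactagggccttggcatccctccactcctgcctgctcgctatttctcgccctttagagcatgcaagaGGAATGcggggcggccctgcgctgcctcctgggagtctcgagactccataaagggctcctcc
Smyd1: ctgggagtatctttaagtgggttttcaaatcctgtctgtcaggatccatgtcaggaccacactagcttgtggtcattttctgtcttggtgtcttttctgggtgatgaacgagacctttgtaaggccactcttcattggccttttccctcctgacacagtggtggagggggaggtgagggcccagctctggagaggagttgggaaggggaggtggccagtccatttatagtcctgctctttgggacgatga
Unc45b: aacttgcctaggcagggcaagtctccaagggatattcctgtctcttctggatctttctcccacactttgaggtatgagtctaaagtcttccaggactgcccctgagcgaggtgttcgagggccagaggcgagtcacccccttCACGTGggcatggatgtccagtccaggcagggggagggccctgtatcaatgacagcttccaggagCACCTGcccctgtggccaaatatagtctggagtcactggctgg

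The *Mybpc1* promoter held 2 E-boxes, that of *Mybpc2* held 1 E-box and 1 MCAT element, that of *Unc45b* held 2 E-boxes, and none of the motifs was found in the window of *Smyd1*. The MCAT element of *Mybpc2* began 62 bases before the start. Among the promoters not printed, *Mybpc3* held 3 E-boxes and 1 MEF2 site, *Mybph* held 1 E-box and 1 MCAT element, and *Myom1* held 3 E-boxes and 1 CArG box. No matches overlapped each other. Of all 32851 promoters in windows of the same length, 66.2% held an E-box, 12.6% an MCAT element, 2.92% a MEF2 site and 1.47% a CArG box. A match describes the letters only, and binding was not measured.

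The siRNA target was examined first. The *Dj1* transcript, listed as Park7 (ILMN_2728754), had a normalized log2 signal of 13.59, 13.37 and 13.63 on scramble arrays 1, 2 and 3 and of 12.48, 12.49 and 12.15 on DJ-1 siRNA arrays 1, 2 and 3. It fell by 1.16 on the log2 scale (SE, the standard error of the fit, 0.14, limma adjusted p = 0.00344), and the third DJ-1 siRNA array was the lowest of all 6.

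Of the 9 probes, 7 (for 5 genes) were tested, and all 7 were detected on every array. By limma, 2 were called lower after *Dj1* knockdown, *Mybpc2* and *Smyd1*, against 13.6% of all 17890 tested probes, and 0 were called higher, against 16.5% of all tested probes. At an unadjusted p under 0.05, 3 were lower, against 19.2% of all tested probes, and 0 higher, against 23.6%. None was called higher in any of the 12 alternative settings, which were run with limma too. The groups did not overlap, with the knockdown arrays lower, for 3 of the 7 probes, against 22% of all tested probes, and for none with the knockdown arrays higher, against 26.5%. The median log2 fold change of the 7 probes was -0.23, beside 0.05 over all tested probes. Their median became -0.12 when DJ-1 siRNA replicate 3 was left out, -0.37 when replicate 2 of that group was, and -0.13 with no background correction. The number called lower was 1 when scramble replicate 1 or 2 or DJ-1 siRNA replicate 1 or 2 was left out, and 0 when DJ-1 siRNA replicate 3 was.

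**Figure D1:**
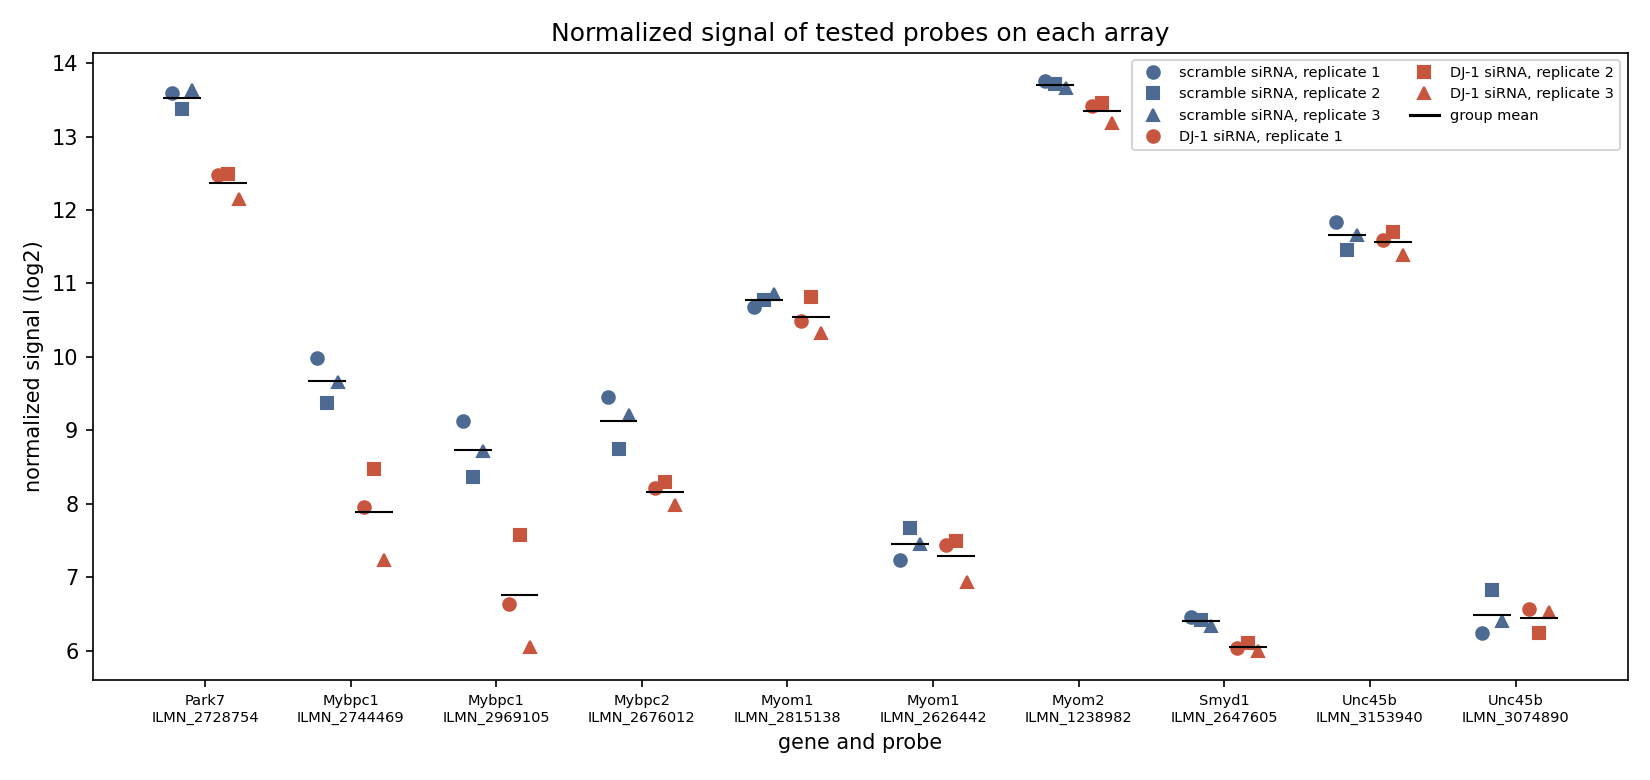
Normalized log2 signal (vertical axis) of each tested probe of the listed genes and of Park7 on every array, with scramble siRNA in blue, DJ-1 siRNA in red, a marker shape per replicate and a line at the group mean. The groups are separate for both Mybpc1 probes, Mybpc2, Smyd1, Park7 and the Myom2 probe, and they overlap for Myom1 and Unc45b.

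Among the myosin-binding proteins, the fast skeletal form fell. The raw signal of *Mybpc2* (listed as MYBPC2, ILMN_2676012) was 865.3, 589.6 and 706.8 on scramble arrays 1, 2 and 3 and 422.8, 475.5 and 339.3 on DJ-1 siRNA arrays 1, 2 and 3. Normalized log2 signals were 9.45, 8.74 and 9.21 against 8.21, 8.30 and 7.98. Every knockdown array lay below every scramble array, and the scramble arrays were spread more widely. The means were 9.13 ± 0.36 (SD, n = 3) and 8.16 ± 0.16 (SD, n = 3). *Mybpc2* thus fell by 0.97 on the log2 scale (SE 0.20, 95% confidence interval -1.44 to -0.50, limma adjusted p = 0.0136), with 51.0% of the control signal left. In bulk RNA of this kind, fewer cells that express a gene and less RNA per cell cannot be told apart. Without DJ-1 siRNA replicate 3 the log2 fold change was -0.88 and no longer called (limma adjusted p = 0.0530), and over all 12 alternatives the adjusted p lay between 0.000641 and 0.0530.

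The slow skeletal form, *Mybpc1*, was measured by 4 probes under its older name, of which 3 carried its Entrez gene number. The raw signal of ILMN_2744469 was 1180.1, 826.1 and 919.5 on scramble arrays 1, 2 and 3 and 374.6, 520.6 and 254.2 on DJ-1 siRNA arrays 1, 2 and 3. On the normalized log2 scale these were 9.98, 9.37 and 9.66 against 7.95, 8.47 and 7.23. The groups were far apart, and within the knockdown group array 2 was the highest and array 3 the lowest. This probe fell by 1.79 on the log2 scale (SE 0.32, 95% confidence interval -2.55 to -1.03, limma adjusted p = 0.00937), to 28.9% of the scramble signal. The other detected probe, ILMN_2969105, had normalized log2 signals of 9.12, 8.36 and 8.72 on scramble arrays and 6.63, 7.58 and 6.05 on knockdown arrays. Its order of arrays was the same in both groups as that of the first probe. It fell by 1.98 in log2 units (SE 0.39, limma adjusted p = 0.0128), with a log2 fold change of -1.18 without background correction. Both falls were called in all 12 alternatives. The remaining probes, ILMN_2739266 and ILMN_1238561, were detected on 1 and 0 of the 6 arrays and were not tested.

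The cardiac form, *Mybpc3* (MYBPC3, ILMN_2689136), was not detected on any array. Its raw signal lay between 136.0 and 152.0 on scramble arrays and between 151.3 and 167.4 on knockdown arrays, and no fold change is given.

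At the M-band, no tested probe of *Myom1* or *Myom2* was called. *Myom2* (MYOM2) had a bright probe, ILMN_1238982, with raw signals of 13443.3, 13764.2 and 12573.3 on scramble arrays 1, 2 and 3 and 11222.5, 12702.7 and 8562.2 on DJ-1 siRNA arrays 1, 2 and 3. Normalized log2 signals were 13.75, 13.71 and 13.66 against 13.41, 13.46 and 13.18. In raw signal the second knockdown array exceeded the third scramble array, while after normalization the groups did not overlap. The log2 fold change was -0.36 (SE 0.11, 95% confidence interval -0.62 to -0.09, limma adjusted p = 0.0501), just outside the threshold. It was called without background correction (limma adjusted p = 0.0110), with the stricter filter (0.0268) and with a variance trend (0.00185), and the adjusted p reached 0.191 when arrays were shifted to a common 75th percentile, where the log2 fold change was -0.20. The dim *Myom2* probe, ILMN_2992449, was detected on DJ-1 siRNA array 3 alone and was not tested.

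The bright *Myom1* probe (MYOM1, ILMN_2815138) gave raw signals of 1824.6, 1920.1 and 1922.7 on scramble arrays 1, 2 and 3 and 1581.8, 2146.6 and 1240.1 on DJ-1 siRNA arrays 1, 2 and 3. Knockdown array 2 was above all scramble arrays in raw signal, and the groups overlapped after normalization too. The log2 fold change was -0.23 (SE 0.15, 95% confidence interval -0.58 to 0.12, limma adjusted p = 0.279), and it was -0.12 when DJ-1 siRNA replicate 3 was left out, -0.37 when replicate 2 of that group was, and -0.14 with arrays shifted to a common 75th percentile. The dim *Myom1* probe, ILMN_2626442, had raw signals between 292.7 and 354.7 on scramble arrays and between 230.0 and 329.9 on knockdown arrays. Its log2 fold change was -0.16 (95% confidence interval -0.62 to 0.29, limma adjusted p = 0.552), and it lay between -0.28 without scramble replicate 1 and 0.01 without DJ-1 siRNA replicate 3 when single arrays were left out.

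Of the folding factors, *Smyd1* (SMYD1, ILMN_2647605) was called lower near the background of the arrays. Its raw signal was 227.2, 229.1 and 205.4 on scramble arrays 1, 2 and 3 and 197.4, 211.3 and 181.4 on DJ-1 siRNA arrays 1, 2 and 3, where the lowest detected signal per array was between 161.6 and 187.4. Raw values overlapped, since knockdown array 2 exceeded scramble array 3. Normalized log2 signals were 6.46, 6.41 and 6.33 against 6.04, 6.11 and 5.99 and did not overlap. *Smyd1* fell by 0.35 on the log2 scale (SE 0.09, 95% confidence interval -0.58 to -0.13, limma adjusted p = 0.0315), to 78.2% of the scramble signal. The raw group means differed by -23.9, where the standard error over beads on single arrays was between 9.11 and 16.6. The call was kept in 3 of 12 alternatives and lost in 9, among them no background correction (-0.13, limma adjusted p = 0.219). It was lost with no filter (limma adjusted p = 0.0736) and with a variance trend (0.218) too, where the log2 fold change was still -0.35. The call was also lost without scramble replicate 1 (0.0561) or 2 (0.0741) and without knockdown replicate 1 (0.107), 2 (0.0567) or 3 (0.0936). In these the log2 fold change lay between -0.38 and -0.33.

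The chaperone gene *Unc45b* (UNC45B) was measured by a bright probe, ILMN_3153940, with raw signals of 3771.4, 2971.5 and 3236.0 on scramble arrays 1, 2 and 3 and 3247.4, 3851.3 and 2529.7 on DJ-1 siRNA arrays 1, 2 and 3. In raw signal the highest and the lowest array both belonged to the knockdown group. The log2 fold change was -0.09 (SE 0.14, 95% confidence interval -0.43 to 0.24, limma adjusted p = 0.646), and 0.04 with arrays shifted to a common 75th percentile. With scramble replicate 1 or 2 left out it was -0.00105 or -0.19, and with knockdown replicate 2 or 3 left out it was -0.17 or -0.00817, with no call in any of these. The dim probe, ILMN_3074890, had raw signals between 209.5 and 260.1 on scramble arrays and between 205.9 and 227.5 on knockdown arrays. Its log2 fold change was -0.04 (95% confidence interval -0.47 to 0.39, limma adjusted p = 0.881), which became -0.17 with scramble replicate 1 left out, 0.13 with scramble replicate 2 left out and 0.06 with DJ-1 siRNA replicate 2 left out.

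**Figure D2:**
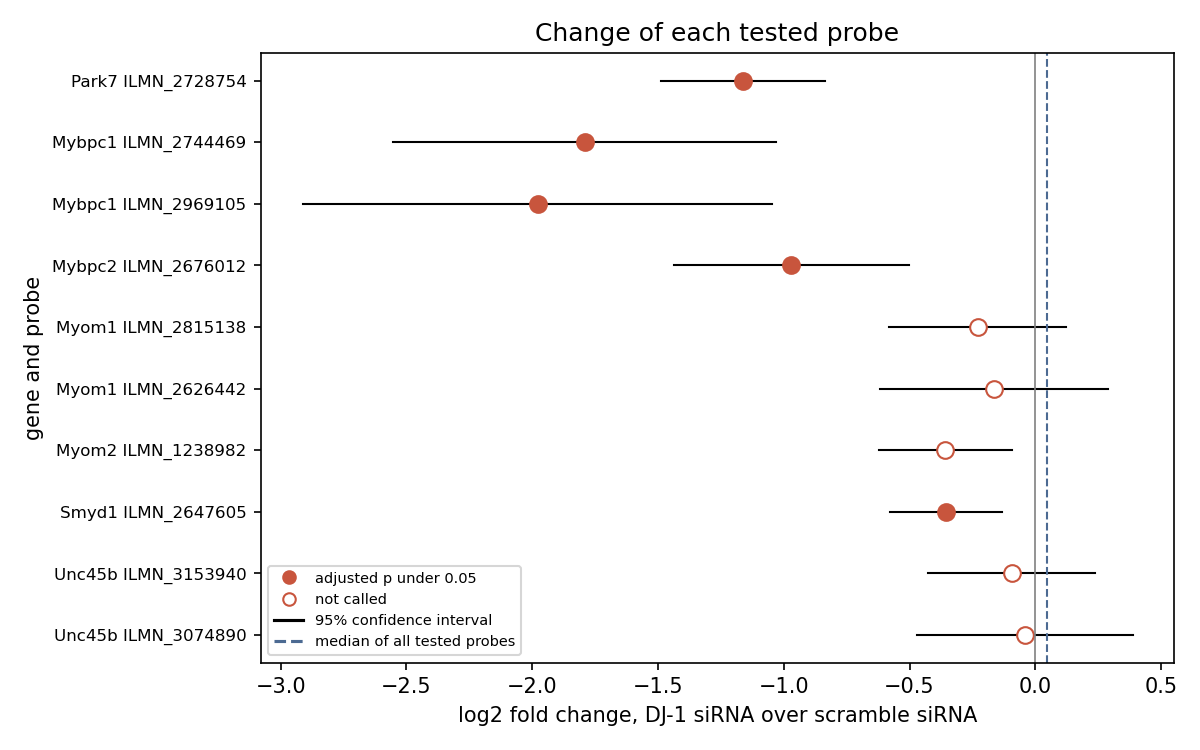
Log2 fold change of DJ-1 siRNA over scramble siRNA (horizontal axis) for each tested probe, with its 95% confidence interval, filled where the adjusted p from limma was under 0.05, and a dashed line at the median of all tested probes, 0.05. The intervals of both Mybpc1 probes, of Mybpc2 and of Smyd1 lie below 0 with a call, that of Myom2 lies below 0 without a call, and those of Myom1 and Unc45b cross 0.

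The probes shared an order within the knockdown group. On the normalized scale, DJ-1 siRNA array 3 was the lowest of its group for 6 of the 7 tested probes and array 2 the highest for 6 of 7, against 35.8% and 35.8% of all tested probes. Array 3 was lowest for 15 of 20 probes of the sarcomeric myosins, 8 of 10 of the myotube markers, 9 of 14 of the myogenic transcription factors and 3 of 4 of the fibroblast markers, for which array 2 was the highest in 4 of 4. Shares closer to that of all probes were found for the M-band and thick-filament partners (8 of 18), the myosin-folding partners (9 of 24) and the cycling myoblast markers (3 of 9). It was lowest for 0 of 2 adipocyte marker probes and 0 of 1 cardiomyocyte marker probe. The part of this array in the group differences was not tested beyond leaving it out.

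Whether paired genes changed unequally was examined as the difference of normalized log2 signals within each array, which has no meaning as a ratio of transcript levels and was compared between groups only. *Mybpc2* minus *Mybpc1* was -0.54, -0.64 and -0.46 on scramble arrays 1, 2 and 3 and 0.26, -0.17 and 0.75 on DJ-1 siRNA arrays 1, 2 and 3. The knockdown values were all higher and more spread, and the difference between group means was 0.82 (two-sided exact permutation test, p = 0.1, 0.15 adjusted over 3 ratios). *Smyd1* minus *Unc45b* had a difference between groups of -0.26 with no overlap (two-sided exact permutation test, p = 0.1, adjusted 0.15). This was -0.04 without background correction, -0.16 without scramble replicate 2 and -0.42 with arrays shifted to a common 75th percentile. For *Myom2* minus *Myom1* it was -0.13 with overlapping groups (two-sided exact permutation test, p = 0.4, adjusted 0.4), and -0.06, -0.19 and -0.04 when scramble replicate 1, scramble replicate 3 or DJ-1 siRNA replicate 2 was left out. With 3 arrays per group the smallest p is 0.1, so none of these could pass 0.05.

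**Figure D3:**
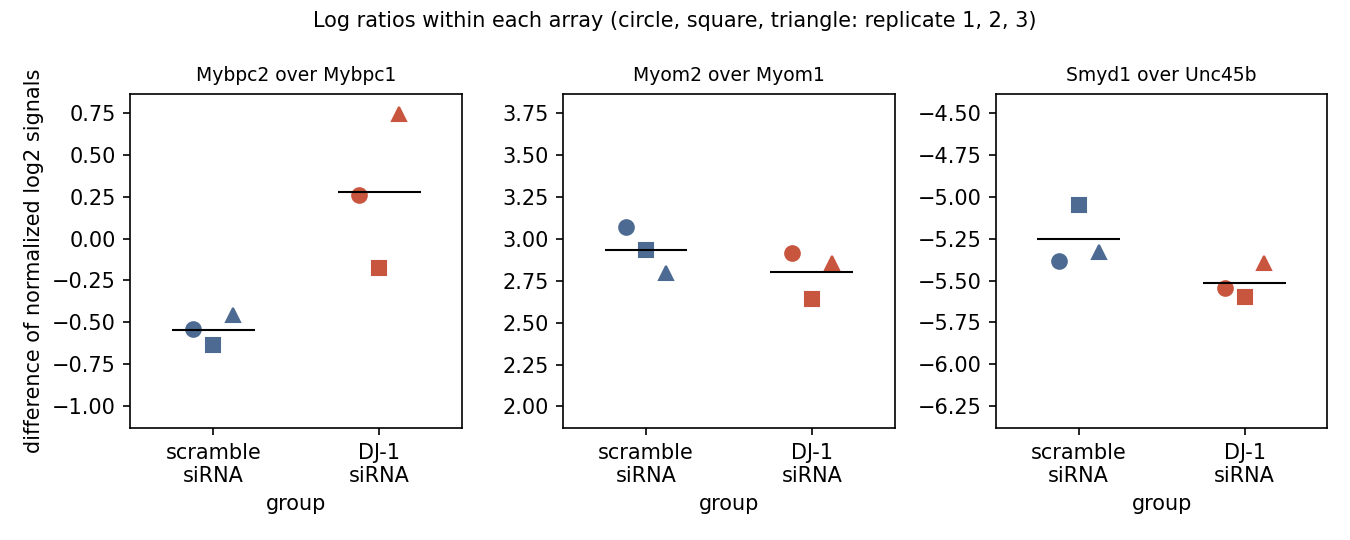
Difference of normalized log2 signals of paired genes within each array (vertical axes of equal span) for scramble siRNA and DJ-1 siRNA, with a marker per replicate and a line at the group mean. The groups are separate for Mybpc2 over Mybpc1 and for Smyd1 over Unc45b and overlap for Myom2 over Myom1.

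Genes with the most similar profile were taken as those with the smallest root-mean-square difference in centred log2 signal over the 6 arrays, among 14165 probes. For *Mybpc1* these were Dcn (0.121), which encodes the matrix proteoglycan decorin, and Cmya5 (0.167), a muscle protein of the costamere and Z-disc region. For *Mybpc2* they were Dpp8 (0.087) and Alox5 (0.088), and for *Smyd1* Ankrd39 (0.017) and Ssbp1 (0.022). The nearest to *Myom2* were Atp5j (0.023) and Chrng (0.024), the gamma subunit of the acetylcholine receptor. *Myom1* lay nearest to Tecpr2 (0.047) and Tex9 (0.051), and *Unc45b* to Cklf (0.037) and Sms-ps (0.041).

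Most tested probes of the sarcomeric myosins and their kinase were called lower. Of 20 tested probes of sarcomeric myosin heavy and light chains and their kinase, 13 were lower and 0 higher by limma. Some of the 13 probes were of the same gene. Among all tested probes, 13.6% were lower and 16.5% higher. At an unadjusted p under 0.05 the counts were 14 and 1, beside 19.2% and 23.6% of all tested probes. The list's median log2 fold change was -0.89, beside 0.05 over all tested probes. The largest fitted falls were those of the fast heavy chains Myh4 and Myh1. Myh4 fell by 3.72 in the fit, but it was detected on all 3 scramble arrays and on only 1 after knockdown, so the size of its fall is uncertain. Myh2 (ILMN_1219423) and a Mylk2 probe (ILMN_1257739), both called lower, were detected on 3 scramble arrays and 0 knockdown arrays. Such probes passed the detection filter only through the scramble arrays, where they were high, so they add no support to the count of falls. Myh1 fell by 2.19 (adjusted p = 0.00284). The brightest probe, of the fast regulatory light chain gene Mylpf, was not called (-0.19, adjusted p = 0.145). Myh3 was not called either (-0.17). The probes of Myl1 disagreed, with ILMN_2694907 called lower (-1.20) and ILMN_2878542 not called (-0.01). Without scramble replicate 3, 1 probe of this list was called higher.

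The partners of the M-band and thick filament moved in both directions. Of 18 tested probes, 7 were lower (38.9%, beside 13.6% of all tested probes) and 5 higher (27.8%, beside 16.5%), with a median of -0.19. The counts were the same at an unadjusted p under 0.05, beside 19.2% and 23.6% of all tested probes. Myom3, a further myomesin gene chosen after its values were seen, fell by 0.53 (adjusted p = 0.0226). Probes listed under titin, the elastic filament that is anchored at the M-band, disagreed, with 3 lower, 2 higher and 2 not called among the 7 tested. The 3 that matched Ttn in the RefSeq gene table all had negative values, from -0.76 to -0.38, and 2 of them were called lower. Of the 4 without a match, 1 was lower and 2 were higher. One of the higher probes, ILMN_2744368, was detected on 1 scramble array and 3 knockdown arrays. It passed the detection filter only through the knockdown arrays, where it was high. ILMN_1228221, whose accession was not in the RefSeq gene table, rose by 1.77 (adjusted p = 0.00277), and ILMN_1223811, matched to Ttn, fell by 0.76 (adjusted p = 0.0256). The brightest probe, of the autophagy receptor gene Sqstm1, stood at 0.25 and was not called (adjusted p = 0.245). The number higher was between 1 and 2 with any single array left out, and the number lower was 2 without DJ-1 siRNA replicate 3.

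Of 24 tested probes of myosin-folding partners, 5 were lower (20.8%, beside 13.6% of all tested probes) and 1 higher (4.17%, beside 16.5%), with a median of -0.14. At an unadjusted p under 0.05, 9 were lower and 1 higher, beside 19.2% and 23.6% of all tested probes. The ubiquitin ligase gene Ube4b rose by 0.69 (SE 0.11, adjusted p = 0.00641), and Unc45a, the general form of the chaperone, fell by 0.62 (SE 0.16, adjusted p = 0.0313). The brightest probe, of the heat shock cognate gene Hspa8, was not called (-0.15, adjusted p = 0.236). The number lower was 3 without scramble replicate 2 or DJ-1 siRNA replicate 2, and 2 when DJ-1 siRNA replicate 1 or 3 was left out, and the number higher was 2 without scramble replicate 2.

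Of 14 tested probes of myogenic transcription factors, 9 were lower and 0 higher by limma, beside 13.6% and 16.5% of all tested probes. At an unadjusted p under 0.05 the counts were also 9 and 0, beside 19.2% and 23.6%. Some of the 9 probes were of the same gene. The list's median was -0.59, and over the 12 alternatives the number lower was between 6 and 8. The largest changes were those of Mef2c, which fell by 2.61 (SE 0.24, adjusted p = 0.00277) and by 2.48 (SE 0.26, adjusted p = 0.00308) on its probes ILMN_1214950 and ILMN_2887992.

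**Figure D4:**
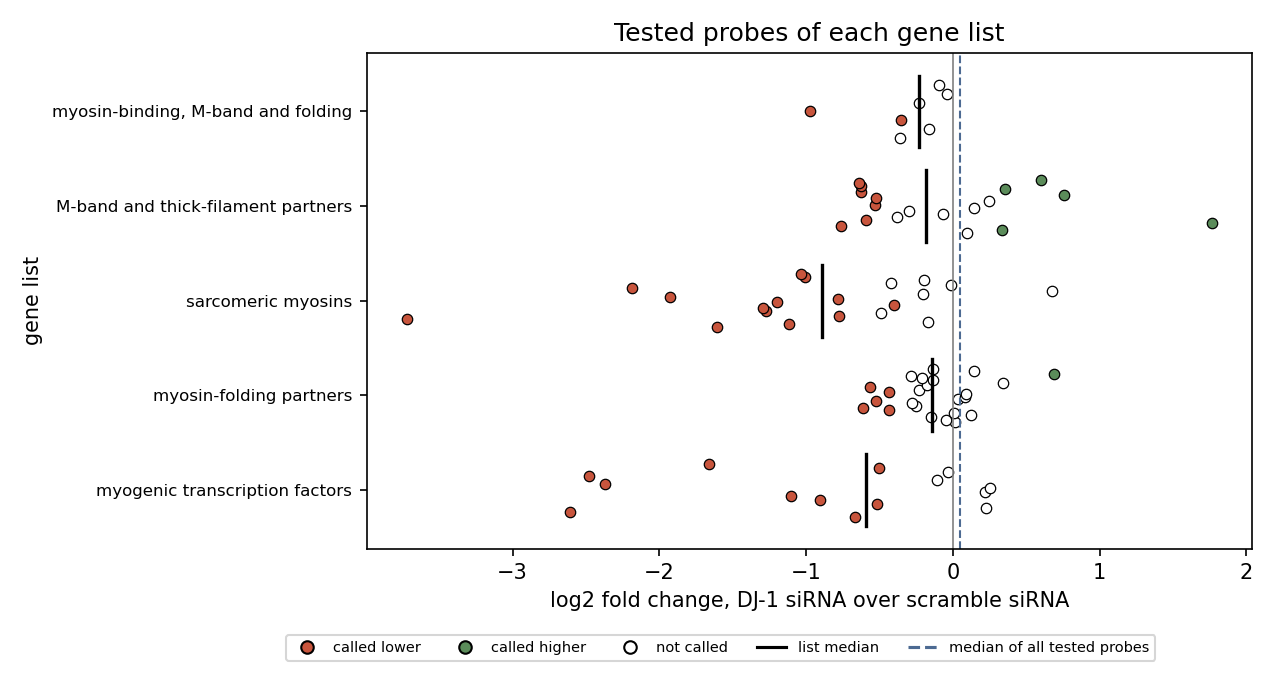
Log2 fold change of DJ-1 siRNA over scramble siRNA (horizontal axis) for every tested probe of the listed genes and of the 4 other gene lists, coloured by call from limma, with a black line at each list's median and a dashed line at the median of all tested probes, 0.05. The sarcomeric myosins (-0.89) and myogenic transcription factors (-0.59) have the lowest medians of the lists shown.

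The labelled cell type was checked with marker genes. All 10 myotube marker probes were detected on every array, the brightest being that of Acta1, with summed raw signals of 116953, 126143 and 110780 on scramble arrays 1, 2 and 3 and 103025, 121842 and 89479 on DJ-1 siRNA arrays 1, 2 and 3. Of these, 5 were lower (both of Actn2, and those of Cav3, Des and Tnnt3) and 0 higher by limma, beside 13.6% and 16.5% of all tested probes. The counts were also 5 and 0 at an unadjusted p under 0.05, beside 19.2% and 23.6%. Not called were Acta1 (-0.005), Ckm (-0.07), Myh3 (-0.17) and both probes of Myog (0.22 and -0.11). Among markers of undifferentiated or cycling myoblasts, 3 of 9 tested probes were lower, for Id1, Id3 and 1 of the 2 of Ccnb1. This was 33.3%, beside 13.6% of all tested probes, and 0 were higher, beside 16.5%. At an unadjusted p under 0.05 the counts were 3 and 2, beside 19.2% and 23.6%, and Pax7 was not detected. The median log2 fold change of this list was 0.13, and the other tested probe of Ccnb1 (-0.31, adjusted p = 0.166) and those of Ccna2 (0.13), Mki67 (0.47 and 0.20) and Top2a (0.25 and 0.23) were not called. The 9 tested probes of the list, of which the brightest was for Ccnb1, had summed raw signals of 5371, 5913 and 5276 on scramble arrays and 4559, 5433 and 4136 on knockdown arrays. Over all 13 probes of the list, untested ones included, the sums were 6041, 6603 and 5827 against 5157, 6059 and 4724.

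The tested probes of fibroblast markers fell, as did 13 of 20 tested probes of the sarcomeric myosins and their kinase. The profile nearest to *Mybpc1* was that of the fibroblast marker Dcn, followed by that of the muscle gene Cmya5. All 4 tested fibroblast probes were lower, for Dcn (-1.79 and -1.34), Col1a1 (-0.47) and Pdgfra (-0.58), while 13.6% of all tested probes were lower and 16.5% higher. Their summed raw signals were 10939, 10638 and 9573 on scramble arrays 1, 2 and 3 and 5279, 6970 and 4127 on DJ-1 siRNA arrays 1, 2 and 3. Over all 11 probes of the list, untested ones included, the sums were 11939, 11805 and 10553 against 6325, 8077 and 5126. The brightest probe was for Dcn, while Thy1 and Tcf21 were not detected. Of the 2 tested adipocyte probes, that of Pparg was higher and that of Cebpa lower, beside 16.5% and 13.6% of all tested probes. The Cebpa probe was detected on 3 scramble arrays and 1 knockdown array, so it was tested only through the scramble arrays, where it was high. The other Pparg probes, ILMN_1221893 and ILMN_1221594, were each detected on 1 array and not tested. The 2 tested probes had a summed raw signal of 545.9, 442.1 and 437.1 on scramble arrays and 538.6, 596.5 and 572.5 on knockdown arrays, with Pparg the brighter. All 6 adipocyte probes, with the untested ones, summed to 1231, 1064 and 1053 against 1187, 1247 and 1176, and Adipoq was not detected. The cardiomyocyte markers Nppa, Nppb, Ryr2 and Tnni3 were not detected. The single tested probe, of Myh6, was not called by limma (0.68, adjusted p = 0.103). At an unadjusted p under 0.05 it was higher, beside 23.6% of all tested probes. It had raw signals of 231.0, 202.9 and 254.6 on scramble arrays and 286.7, 276.8 and 252.3 on knockdown arrays, while all 9 cardiomyocyte probes, with the untested ones, summed to 1409, 1400 and 1362 against 1448, 1502 and 1351. The part of other cell types and of the degree of differentiation in the changes of the listed genes was not tested.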

How the data were processed

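The authors quantified 6 arrays in GenomeStudio (module GSGX 1.9.0 per the file headers) and deposited, for each of 45281 probes, the mean bead signal intensity without normalization or background subtraction, the bead number and standard error, and the detection p-value against the negative controls. A genome build is not given in the sources used here. In R 4.3.3 with limma 3.58.1, background was corrected by normexp with negative controls inferred from the deposited detection p-value (offset 16), and arrays were then quantile normalized on the log2 scale with neqc. The 17890 probes with detection p under 0.05 on at least 3 of 6 arrays were fitted with lmFit and eBayes. All adjusted p-values are from this limma fit by the Benjamini-Hochberg method over all tested probes (threshold 0.05), except those of the 3 ratios, which had two-sided exact permutation tests. The pipeline was tested on simulated data. The probes of the listed genes that were analysed, those of Mybpc1 included, had between 21 and 61 beads.

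Names came from the RefSeq gene table of GRCm38.p6 by Entrez gene number or accession (32345 probes) and otherwise from the file. The named genes are every probe found for the listed genes, Park7 and the 2 nearest profiles per gene. Added to these are, per list, the 2 largest changes and the brightest probe, and markers. Myom3 was named too, after its values had been seen. The brightest probe of the myogenic transcription factor list is not reported here. The members and lists were chosen with earlier results of these data known. In the sarcomeric myosin list 2 probes were undetected on all knockdown arrays, and with their changes as bounds against the lowest detected signals the list's median was also -0.89. The alternatives were no background correction, shifting arrays to 1 common 75th percentile instead of quantile normalizing, testing all probes, testing those with detection p under 0.01 on every array (the stricter filter), a variance trend, the replicate number as a block, and each array left out in turn. Motifs were counted and figures drawn in Python 3.11.15 (pandas 2.3.3, matplotlib 3.10.9).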

Additional observations from a re-analysis of the deposited data

How the results depend on the processing

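The fall of Park7 held its call in all 12 alternatives, at log2 values from -1.24 to -1.003. Changed probes numbered 5387, 3519 with no filter, where more probes were tested, and between 2444 (without DJ-1 siRNA replicate 1) and 5302 with an array left out, where fewer samples were compared (2612 without DJ-1 siRNA replicate 3). Member probes called lower numbered 1 with no filter, 3 with the stricter filter and between 0 and 2 with an array left out. Mybpc2 was called in 11 of 12 alternatives (-1.17 to -0.73) and Smyd1 in 3 (-0.39 to -0.13). The cause of these losses was not tested beyond the number of probes and samples. Reversed in sign, none of them called, were the bright Unc45b probe with the 75th percentile shift (0.04017), the dim Unc45b probe (-0.17 to 0.13 with an array left out, 0.1254 without scramble replicate 2 and 0.06186 without DJ-1 siRNA replicate 2) and the dim Myom1 probe (-0.275 to 0.01471 with an array left out). The cause was not tested. The dim Unc45b probe had no value under the stricter filter. The 3 log ratios kept their sign in 8 alternatives each, but not their size: Mybpc2 over Mybpc1 lay between 0.58 and 1.05, Myom2 over Myom1 between -0.19 and -0.04 and Smyd1 over Unc45b between -0.42 and -0.04. Partner lists moved: M-band probes called lower numbered 4 and higher 2 with no filter, and folding probes called lower numbered 8 without background correction, 9 with a variance trend and 3 with no filter, and higher 2 with the 75th percentile shift.

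Deviations from group means correlated at 0.05, 0.05 and 0.02 between arrays of the same replicate number, so the numbers were not taken to pair the samples. With the replicate block, 4350 probes were changed, 1 member probe was called lower (Smyd1 was lost, adjusted p = 0.0661 from limma) and 3 M-band partner probes were higher.

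Signals of Smyd1 and of the dim Myom1 and Unc45b probes lie close to background, which limits what their small differences can show.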
